A study of Mus musculus with 6 samples.

Results

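The genes on both sides of Prmt5 on chromosome 14 were compared between whole fetal lungs labelled Prmt5 knockdown and lungs labelled wild type (WT). Prmt5 encodes an arginine methyltransferase known for the symmetric dimethylation of histones and splicing proteins. Members were the rows on chromosome 14 whose start lies within 5 Mb of the start of Prmt5 and whose mean count over the 6 libraries is 10 or more, 135 genes out of 55359 in the table. Prmt5 itself and 7 others (Myh6, Myh7, Mmp14, Mrpl52, Mrpl57, Hnrnpc and Fgf9) were left out by name. The members were chosen by position and by this mean count, taken over both groups together. Of the 135 members, 131 had enough counts to be tested.

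The libraries hold poly(A) RNA of whole lungs, taken at E18.5 from C57 embryos near the end of gestation, 3 with the genotype label Prmt5 knockdown and 3 with the label WT. The series text describes a mesenchymal knockout of Prmt5 under Dermo1, another name of the mesenchymal gene Twist2, while the sample labels speak of a knockdown. The sources used here do not name the alleles, say what the WT embryos carry, or say whether embryos came from separate litters, so p-values measure the spread between these libraries, which may in part be technical. Total counts were 14390202 to 19262837 in knockdown-labelled libraries and 14383415 to 16358478 in WT libraries.

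An engineered allele is linked on its chromosome to the DNA around it. When a targeted line keeps DNA of another strain beside its allele, or when a cassette in the allele acts on its neighbours, genes around the target can differ between mutant and control embryos without any action of the encoded protein. The comparison asks whether such a difference by genotype label is seen around Prmt5. The segment holds housekeeping genes in closely packed pairs, the alpha and delta T cell receptor locus, the ribonuclease A family, the granule proteases of mast cells and cytotoxic lymphocytes, and the myosin heavy chain genes of heart muscle.

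The labelled target itself lies on the minus strand (54744644 to 54754982). Prmt5 had 39.6, 47.8 and 46.9 CPM in knockdown-labelled replicates 1 to 3 and 46.7, 47.3 and 48.3 CPM in WT replicates 1 to 3, where CPM is the count scaled to the normalized library size. The groups overlapped, with a log2 fold change of -0.08 ± 0.09 (SE) in edgeR (adjusted p = 0.682, quasi-likelihood test) and a 95% confidence interval of -0.29 to 0.13. The log2 fold change was 0.01 when knockdown-labelled replicate 1 was left out. Whole-lung RNA also holds Prmt5 transcripts of cells outside the mesenchyme, and the counts do not resolve exons. Since the target gave no drop past the test, the libraries are called knockdown-labelled and every direction rests on the labels. The 250 bases before the start of Prmt5, the anchor of the segment, are shown as given by RefSeq for GRCm38.p6 (chr14:54517471-54517720, minus strand), with capitals at each CCAAT box on either strand.
Prmt5: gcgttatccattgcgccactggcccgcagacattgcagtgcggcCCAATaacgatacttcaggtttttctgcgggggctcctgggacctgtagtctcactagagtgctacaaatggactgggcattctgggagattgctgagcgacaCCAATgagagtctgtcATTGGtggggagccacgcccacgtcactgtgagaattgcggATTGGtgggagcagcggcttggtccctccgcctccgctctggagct
These bases hold 4 CCAAT boxes. At least 1 such box (CCAAT on either strand) is found in 33.8% of 32851 promoters of that length and in 35.6% of the 149 promoter records that matched 114 of the 135 members.

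In edgeR the genes around Prmt5 gave no calls by genotype label, and DESeq2 called 11. None of the 131 tested members passed an adjusted p of 0.05 in edgeR, with 6 of 17728 genes (0.0338%) called in the whole table. The smallest adjusted p of a member was 0.116, for Ndrg2. DESeq2 at an adjusted p of 0.05 called 11 of the 127 members with an adjusted p (8.66%) and 849 genes in the table (5.20%). At an unadjusted p under 0.05 there were 25 members, of which 14 were higher and 11 were lower in knockdown-labelled lungs, or 19.1%, against 17.0% of all genes tested. By direction these were 10.7% and 8.4% of members, where all genes tested had 8.48% higher and 8.52% lower. The count of 25 was 15 without WT replicate 1, when 9.13% of all genes were under that p. With a term for heart muscle level in the fit the count was 8 (6.91% of all genes).

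The typical member differed little between the groups. The median log2 fold change was 0.0047 over the members and 0.0147 over all genes tested, and 67 members had a positive and 64 a negative value. In 88 of the 131 members the difference was less than 1.2-fold, which is 67.2%, against 66.2% of all genes tested. The 95% confidence interval lay inside a log2 difference of 1 either way for 101 members. All 3 knockdown-labelled libraries lay above all 3 WT libraries in 15 members (10.8% of all genes tested did so) and below them in 12 (12.4%). These 27 members are 20.6%, against 23.2% of all genes, and the rest of chromosome 14 had 28.1% of 480 tested genes. With a library left out the count was 53 without knockdown-labelled replicate 1, 42 without WT replicate 1 and 42 without WT replicate 3, when the shares over all genes were 37.9%, 28.5% and 35.6%.

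**Figure D1:**
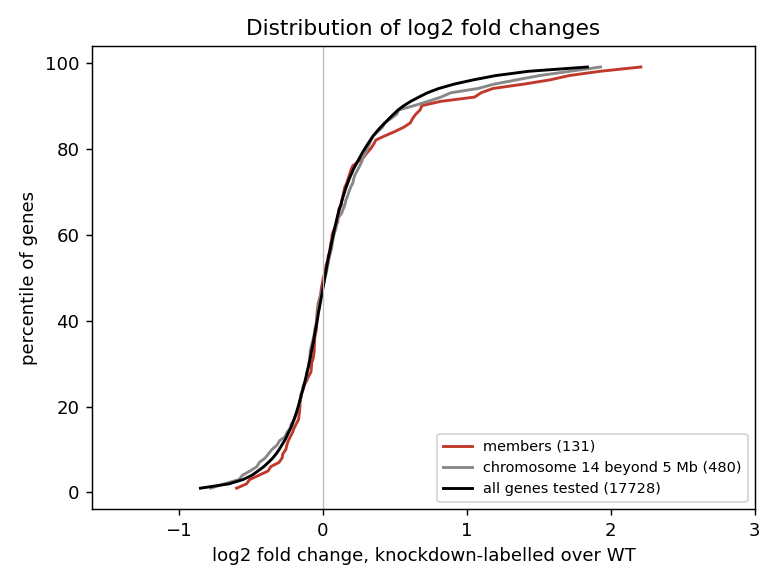
Percentiles (y axis) of the log2 fold change of knockdown-labelled over WT lungs (x axis) for the 131 tested members, 480 tested genes of chromosome 14 more than 5 Mb from Prmt5, and all 17728 genes tested. The 3 curves lie close together around their medians of 0.0047, 0.0171 and 0.0147, and the curve of the members is the furthest right at its upper end.

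The upper tail was longer among the members. An absolute log2 fold change over 1 was found in 12 of 131 members (9.16%), against 4.91% of all genes tested and 6.67% on the rest of chromosome 14. Such changes were mostly positive everywhere, 89.1% of them over all genes tested and 93.8% on the rest of chromosome 14. Among the members all 12 were positive: Armh4, Rnase6, Trdc, Trac, Gm49130, Mhrt, Gm31251, Jph4, Fitm1, Cma1, Mcpt4 and Gjb2. Their mean FPKM over the 6 libraries was 0.298 for Jph4 to 6.47 for Cma1, where the median over members was 5.51. The 12 are not separate observations. Gm49130, Mhrt and Gm31251 overlap the heart myosin genes, Trdc and Trac are T cell receptor segments, and Cma1 and Mcpt4 are mast cell chymases. Gm31251 met the mean count limit through the knockdown-labelled libraries (20, 66 and 16 counts, against 3, 1 and 9 in WT).

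**Figure D2:**
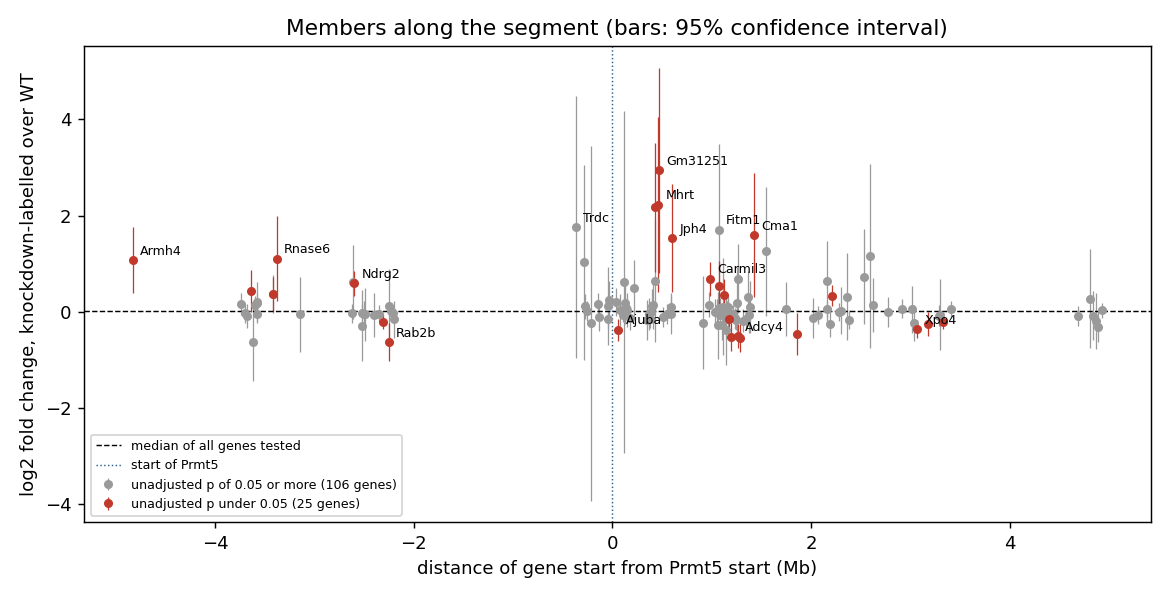
Log2 fold change of knockdown-labelled over WT lungs (y axis) of the 131 tested members by the distance of their start from the start of Prmt5 in Mb (x axis), with 95% confidence intervals as bars. Red points are the 25 members at an unadjusted p under 0.05, which lie on both sides of Prmt5 between members above that p, and the dashed line is the median of all genes tested.

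The medians did not run in one direction with distance from Prmt5. The 38 members within 1 Mb had a median log2 fold change of 0.11, with 25 of 38 positive (65.8%, against 52.9% of all genes tested), and the 93 beyond 1 Mb had a median of -0.02. Of all genes tested 17.0% were at an unadjusted p under 0.05, 8.48% higher and 8.52% lower. Of the 38, 6 were (15.8%), and of the 93, 19 were (20.4%). Within 1 Mb these were 5 higher (13.2%) and 1 lower (2.63%), and 3 of the 5 are the RNAs at the heart myosin genes. Beyond 1 Mb 9 were higher (9.68%) and 10 lower (10.8%). Without those 3 RNAs the median within 1 Mb was 0.07. No member started between Sall2 and Trdc, a gap of 1.83 Mb that holds mostly T cell receptor segments with few or no counts. By 1 Mb bins, the median was 0.11 just before Prmt5 (10 genes), 0.09 just after it (28), -0.01 at 1 to 2 Mb after (35), 0.05 at 2 to 3 Mb after (15) and -0.14 at 3 to 4 Mb after (8). The 15 members 2 to 3 Mb before Prmt5 had a median of -0.04 and the 13 at 3 to 4 Mb before had 0.16.

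**Figure D3:**
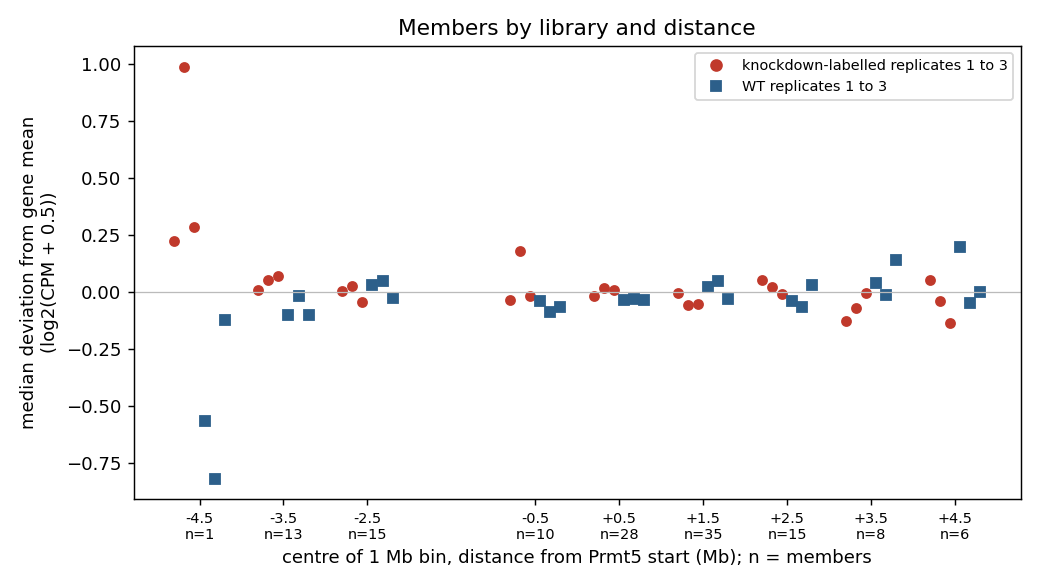
Median over members of the deviation of log2(CPM + 0.5) from each gene's mean over the 6 libraries (y axis), in 1 Mb bins of distance from Prmt5 (x axis, with the number of members), for each knockdown-labelled library (circles) and WT library (squares). All values lie within 0.25 of zero except in the bin of 1 gene, Armh4.

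No member was present in one group and missing from the other. Of all 591 rows in the window, counting those with few reads, none had 10 or more counts in every library of one group and at most 1 in every library of the other. Over all 55359 rows this held for 3, all of them present in the knockdown-labelled libraries, and none of these was on chromosome 14. Of the 448 rows under the mean count limit, 200 were T cell receptor segments, 38 olfactory receptor genes, 16 ribonuclease A genes and 13 granule proteases. Just inside the limit were Gm10916 with a mean count of 10.2 and Rnf17 with 10.5, and just outside it Cideb and Gm16573 with 9.0 each. The outermost members were Armh4 at 4.83 Mb before and Cab39l at 4.93 Mb after Prmt5, and the next expressed genes outside were Naa30 at 5.33 Mb and Cdadc1 at 5.05 Mb.

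Of the 5 nearest members on each side of Prmt5, the groups were apart in Ajuba and overlapped in the others. The members skip Mmp14 and Mrpl52, left out by name, which start 75.6 and 80.3 kb before Prmt5. Mmp14 overlapped between groups, and Mrpl52 was higher without overlap (log2 fold change 0.29, edgeR adjusted p = 0.23). Further out before Prmt5 stood Oxa1l, which inserts proteins into the mitochondrial inner membrane (90.9 ± 9.23 against 80.7 ± 2.84 CPM). Beside it was the amino acid transporter gene Slc7a7 (35.0 ± 4.78 against 37.4 ± 4.24 CPM). Means ± SD here and below are given for 3 knockdown-labelled libraries first and then 3 WT libraries. Closer in were Gm10366, a gene model that overlaps Lrp10 (2.09 ± 0.365 against 1.92 ± 0.755 CPM), and Lrp10, a lipoprotein receptor of the secretory pathway (145 ± 6.68 against 162 ± 14.3 CPM). Rem2, a small GTPase that acts on calcium channels and starts 31.1 kb from Prmt5, stood at 11.9 ± 0.607 against 10.1 ± 1.99 CPM. After Prmt5 came Haus4 at 34.6 kb, a subunit of the augmin complex that branches spindle microtubules (14.2 ± 1.46 against 12.3 ± 0.657 CPM). Beyond it lay the gene model 4931414P19Rik (17.2 ± 2.68 against 16.7 ± 1.27 CPM) and Psmb5, a catalytic subunit of the proteasome (36.4 ± 1.24 against 37.9 ± 0.740 CPM). In these 8 members the edgeR adjusted p ranged from 0.378 for Oxa1l to 0.930 for 4931414P19Rik.

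Ajuba (chromosome 14, 54804929 to 54815015, minus strand) starts 60.3 kb from Prmt5 and encodes a LIM scaffold of cell junctions that restrains the Hippo kinases. It stood at 82.6, 71.8 and 73.8 CPM in knockdown-labelled lungs and at 109.8, 93.4 and 92.5 CPM in WT lungs. Every knockdown-labelled library lay below every WT library, with a log2 fold change of -0.37 ± 0.10 (SE, edgeR adjusted p = 0.163). DESeq2 gave an adjusted p of 0.0292, and with a term for heart muscle level in the edgeR fit the log2 fold change was -0.20. Haus4, which lies between Prmt5 and Ajuba, had a positive log2 fold change of 0.20 ± 0.12 (SE, edgeR adjusted p = 0.457).

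A list named for the centrosome, cilium, kinetochore and Hippo pathway held 11 tested members, among them genes of other roles such as Ndrg2, Arhgef40, Rec8 and Efs, with a median log2 fold change of -0.02. At an unadjusted p under 0.05, 2 were lower and 1 was higher (8.52% and 8.48% of all genes tested). Such counts, here and for the lists below, are not read as results about a list. Beside Ajuba the lower one was Lats2, a kinase of the Hippo pathway. It stood at 48.0, 53.6 and 45.2 CPM in knockdown-labelled lungs and 61.3, 51.8 and 61.7 CPM in WT lungs. The groups of Lats2 overlapped, since WT replicate 2 lay below knockdown-labelled replicate 2 (log2 fold change -0.25, edgeR adjusted p = 0.281). With the heart muscle term the log2 fold change of Lats2 was -0.42. The higher one was Ndrg2, outside the named classes, which encodes a protein of the N-myc downstream-regulated family. Ndrg2 (chromosome 14, 52142728 to 52151615, minus strand) lies 2.6 Mb before Prmt5 and had 299.6, 283 and 254 CPM in knockdown-labelled lungs against 162, 205 and 189 CPM in WT lungs. The groups did not overlap, and the log2 fold change of 0.59 ± 0.11 (SE) had an edgeR adjusted p of 0.116 and a DESeq2 adjusted p of 4.19e-05. By FPKM, which is per exon length, it was among the most abundant members, at 82.1 ± 6.45 against 54.2 ± 6.27.

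The bases before Ndrg2 and Adcy4 are shown because these members had the smallest p in each direction. They are the 250 bases before the first listed RefSeq start in GRCm38.p6, chr14:51914005-51914254 for Ndrg2 and chr14:55784073-55784322 for Adcy4, both on the minus strand. Capitals mark 3 promoter motifs, searched on both strands. They are TATAAA, the core of the element that sets many start sites, the CCAAT box, and the GC box with the letters GGGCGG.
Ndrg2: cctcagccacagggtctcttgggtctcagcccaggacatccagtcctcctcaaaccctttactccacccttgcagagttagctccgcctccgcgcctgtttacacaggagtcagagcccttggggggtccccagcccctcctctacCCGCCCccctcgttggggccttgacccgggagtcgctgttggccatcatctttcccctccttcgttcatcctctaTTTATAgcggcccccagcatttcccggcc
Adcy4: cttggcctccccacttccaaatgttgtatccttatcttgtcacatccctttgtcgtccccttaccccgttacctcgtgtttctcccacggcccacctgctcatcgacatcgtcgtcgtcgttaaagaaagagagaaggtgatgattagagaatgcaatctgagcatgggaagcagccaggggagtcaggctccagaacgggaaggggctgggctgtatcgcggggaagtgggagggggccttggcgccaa
Ndrg2 has 1 TATAAA motif and 1 GC box, both on the opposite strand as written, and Adcy4 has none of the 3 motifs. The motif TATAAA is found in 12.4% of all promoters and in 5.37% of the members' promoter records, and a GC box in 32.7% and 40.3%.

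Adcy4, an adenylyl cyclase that makes cyclic AMP, stood at 43.5, 53.1 and 42.8 CPM in knockdown-labelled lungs and at 68.3, 67.9 and 61.7 CPM in WT lungs. Every knockdown-labelled value lay below every WT value, with a log2 fold change of -0.51 ± 0.10 (SE) and an edgeR adjusted p of 0.128 (DESeq2 adjusted p = 0.00363). Its neighbour Ripk3, the kinase of necroptotic cell death, stood at 9.08, 10.7 and 9.89 CPM against 14.5, 13.3 and 15.3 CPM in WT lungs. Its groups were also apart (log2 fold change -0.54 ± 0.12, SE, edgeR adjusted p = 0.146). Tgm1, a transglutaminase that cross-links proteins at epithelial surfaces, lies in the same stretch of the segment. It stood at 14.3, 11.7 and 14.7 CPM in knockdown-labelled lungs and at 20.0, 18.0 and 20.6 CPM in WT lungs, again without overlap (edgeR adjusted p = 0.146). Between Tgm1 and Adcy4 stand Rabggta, Dhrs1 and Nop9, with negative log2 fold changes of -0.04, -0.14 and -0.16. Of these, Nop9 was lower without overlap. Ltb4r1 and Ltb4r2, the leukotriene B4 receptor genes in the same interval, had positive log2 fold changes of 0.69 and 0.19, at mean counts of 34.2 and 28.

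Markers of endothelium had lower values in the knockdown-labelled libraries, as Adcy4 did. In all 5 of the list (Pecam1, Cdh5, Tie1, Kdr and Tek) the log2 fold change was negative (median -0.52), all at an unadjusted p under 0.05 and none past the adjusted one. Their summed level was 1403 to 1806 CPM in knockdown-labelled lungs and 2111 to 2379 CPM in WT lungs, and none was at 0. Of 6 mesenchyme markers 5 were also negative, and Col1a1, which carried most of their sum, was the positive one. At an unadjusted p under 0.05, 4 were lower and 1 was higher, and 0 passed the adjusted one. Among the 5 was Twist2 (log2 fold change -1.14), the gene under which the series text puts the knockout. Whether its value follows the mesenchyme was not tested. The sums of the 6 were 2173 to 2600 CPM in knockdown-labelled lungs and 2219 to 2415 CPM in WT lungs. Without Col1a1 they were 769 to 857 CPM in knockdown-labelled lungs and 954 to 1122 CPM in WT lungs. The part of either list in the values of Adcy4, Ripk3 and Tgm1 was not tested. In whole-organ RNA, fewer cells of a type and less RNA per cell cannot be told apart. The lung markers themselves were all present, and the lung epithelial list summed to 12375 to 15144 CPM in knockdown-labelled lungs and 11970 to 14715 CPM in WT lungs. Sftpc carried most of that sum. Of the 6 epithelial markers 4 were positive and 2 negative. Ager, a negative one, was apart at 976, 1010 and 850 CPM in knockdown-labelled lungs and 1530, 1349 and 1301 CPM in WT lungs (log2 fold change -0.56, edgeR adjusted p = 0.116). By sex-linked transcripts each group held embryos of both sexes.

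**Figure D4:**
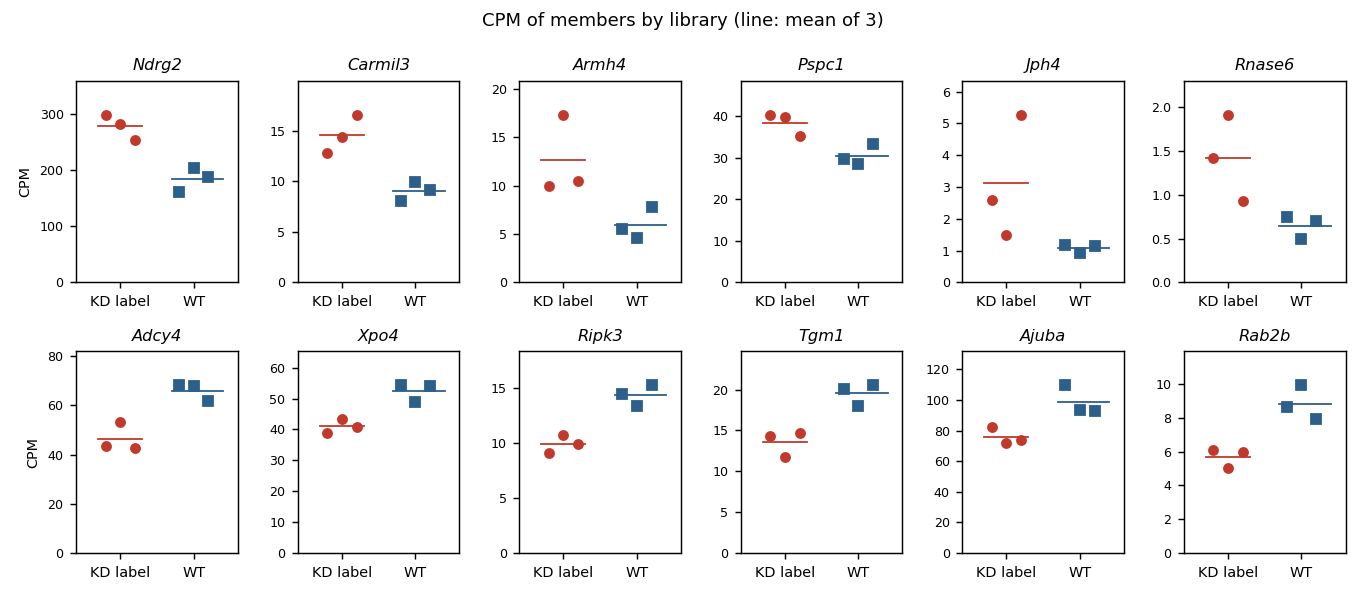
CPM (y axis, from 0) in each knockdown-labelled library (circles, left) and WT library (squares, right) for 6 members with higher and 6 with lower means, with lines at the mean of 3. In all 12 panels the groups do not overlap, and in edgeR the adjusted p of each of the 12 was above 0.05.

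The list of cytokine, interferon and cell death genes had 8 members and a median log2 fold change of -0.05. At an unadjusted p under 0.05, 1 was lower, Ripk3, and none was higher (8.52% and 8.48% of all genes tested). Irf9, the DNA-binding partner of interferon-activated STAT proteins, stood at 56.8 ± 7.62 against 68.8 ± 9.07 CPM. Bcl2l2, which encodes the survival protein Bcl-w, stood at 65.4 ± 5.20 against 72.5 ± 3.30 CPM. Both overlapped between groups, Bcl2l2 only just (59.9 to 70.2 against 70.1 to 76.3 CPM), and the log2 fold change of Irf9 was 0.07 with a term for heart muscle level in the fit.

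A list named for RNA processing and chromatin, the largest with 23 members, also held Ppp1r3e, a glycogen-targeting phosphatase subunit. The list had a median log2 fold change of -0.04, with 16 negative and 7 positive. Among them 1 was higher and 2 were lower at an unadjusted p under 0.05 (8.48% and 8.52% of all genes tested). Pspc1, a protein of the nuclear bodies called paraspeckles, stood at 40.3, 39.7 and 35.1 CPM in knockdown-labelled lungs and at 29.6, 28.5 and 33.2 CPM in WT lungs. Its groups were apart, with a log2 fold change of 0.33 ± 0.09 (SE, edgeR adjusted p = 0.177), which was 0.16 with the heart muscle term. Chd8, a chromatin remodeller, stood at 151, 167 and 155 CPM against 186, 180 and 183 CPM in WT lungs (edgeR adjusted p = 0.205). Tinf2, which encodes a protein of the telomere cap, stood at 33.1, 33.8 and 33.6 CPM against 38.8, 36.4 and 37.0 CPM (edgeR adjusted p = 0.285). Chd8 and Tinf2 were both lower without overlap, by less than 1.2-fold.

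Other regulators of RNA, picked after their values were seen, differed by less than 1.2-fold. Acin1, a component of splicing-linked complexes, had 426 ± 7.82 against 405 ± 5.69 CPM without overlap (edgeR adjusted p = 0.601), and the poly(A)-binding protein gene Pabpn1 had 161 ± 16.1 against 161 ± 0.837 CPM. Mettl3, the RNA methyltransferase of N6-methyladenosine, had 27.8 ± 1.04 against 28.3 ± 0.624 CPM. The log2 fold change of Mettl3 was -0.03 ± 0.07 (SE, edgeR adjusted p = 0.894).

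The list of the proteasome and ubiquitin-like proteins also took in genes of nuclear import and of the endoplasmic reticulum. At an unadjusted p under 0.05, 2 of its 10 members were higher and none lower (8.48% and 8.52% of all genes tested). Neither of the 2 is a proteasome gene. Ipo4, an importin, stood at 30.4, 23.7 and 31.3 CPM against 25.5, 20.3 and 21.3 CPM in WT lungs, with overlapping groups (log2 fold change 0.35, edgeR adjusted p = 0.274, and 0.64 with the heart muscle term). Emc9, a subunit of the complex that inserts membrane proteins, stood at 9.57, 8.49 and 7.74 CPM against 5.13, 7.77 and 4.87 CPM, with WT replicate 2 just above knockdown-labelled replicate 3. The end of Emc9 overlaps that of Psme1 in the table. Psme1, which forms the activator of the immunoproteasome with Psme2, had 94.5 ± 5.99 against 89.4 ± 1.43 CPM, and the ubiquitin-like protein gene Nedd8 had 50.4 ± 3.83 against 46.8 ± 3.39 CPM.

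Metabolic enzymes and transporters held 15 members with a median of 0.0047. At an unadjusted p under 0.05, 1 was lower and none was higher (8.52% and 8.48% of all genes tested). That one was Atp12a, a proton and potassium pump of epithelia, at 9.08, 9.41 and 10.1 CPM against 14.1, 15.3 and 9.93 CPM. WT replicate 3 lay among the knockdown-labelled libraries (log2 fold change -0.46, edgeR adjusted p = 0.274), and with the heart muscle term the log2 fold change was -0.04. The amino acid transporter gene Slc7a8 stood at 10.7 ± 3.22 against 7.63 ± 0.794 CPM and Pnp, a purine salvage enzyme, at 28.8 ± 1.18 against 25.4 ± 2.07 CPM. Fitm1, a lipid droplet gene of skeletal and heart muscle, stood at 2.84, 6.86 and 8.61 CPM in knockdown-labelled lungs and at 0.989, 0.494 and 4.10 CPM in WT lungs. Its WT replicate 3 lay above knockdown-labelled replicate 1 (log2 fold change 1.70 ± 0.75, SE, edgeR adjusted p = 0.309). For Fitm1 it was 0.47 with the heart muscle term and 3.02 without WT replicate 3.

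The ribonuclease A family encodes secreted enzymes that cut RNA, among them angiogenin, known for its effect on vessel growth. Its 3 members all had positive log2 fold changes. Rnase4 and Rnase6 were at an unadjusted p under 0.05, where 8.48% of all genes tested were higher. Rnase4 (chromosome 14, 51328534 to 51343608) stood at 111, 152 and 155 CPM in knockdown-labelled lungs and 105, 123 and 97.2 CPM in WT lungs. The groups overlapped through WT replicate 2, with a log2 fold change of 0.36 ± 0.15 (SE, edgeR adjusted p = 0.284). It was the member with the highest FPKM, at 85.2 ± 14.7 against 65.7 ± 7.58. Ang, the angiogenin gene, stood at 6.67, 8.28 and 7.99 CPM against 5.69, 6.57 and 5.45 CPM, with a log2 fold change of 0.37 ± 0.17 (SE, edgeR adjusted p = 0.314). Knockdown-labelled replicate 1 had the lowest value of its group for both genes. Rnase6, an antimicrobial ribonuclease of phagocytes, had 1.42, 1.91 and 0.922 CPM against 0.742, 0.494 and 0.705 CPM, apart but near the floor (log2 fold change 1.10, edgeR adjusted p = 0.223, and 0.57 with the heart muscle term).

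Rnase4 and Ang are spliced from a common start, and their RefSeq records in GRCm38.p6 list the same promoter. Its 250 bases before the start (chr14:51090827-51091076, plus strand) are shown because these neighbours had similar log2 fold changes, with the CCAAT box in capitals.
Rnase4 and Ang: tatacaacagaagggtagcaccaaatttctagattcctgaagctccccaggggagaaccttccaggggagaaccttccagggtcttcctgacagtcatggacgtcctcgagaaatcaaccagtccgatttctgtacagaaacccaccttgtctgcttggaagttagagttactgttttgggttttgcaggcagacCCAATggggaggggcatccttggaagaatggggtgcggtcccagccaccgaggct
It holds 1 CCAAT box and neither a TATAAA motif nor a GC box as searched. The rows of Rnase4 and Ang overlap on the same strand, so how reads of the shared exon were assigned bears on both values.

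Among the members 19 pairs stood head to head with starts within 1000 bases in the table, and both partners were tested in 17. The partners' log2 fold changes had the same sign in 6 of the 17 and opposite signs in 11. Osgep, which modifies transfer RNA, and Apex1, a DNA repair endonuclease, were a pair with the same sign (0.15 ± 0.07 and 0.21 ± 0.17, SE), with adjusted p of 0.367 and 0.579 in edgeR. The 55 bases between their RefSeq starts in GRCm38.p6 (chr14:50924894-50924948, plus strand) are shown as an example of how near such neighbours are, with a CCAAT box and a GC box in capitals.
Osgep and Apex1: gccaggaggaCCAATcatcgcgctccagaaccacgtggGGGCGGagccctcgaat
Rab2b and Tox4 overlap at their starts and had log2 fold changes of -0.63 and 0.02. Rab2b, a small GTPase of the Golgi, stood at 6.11, 5.02 and 5.99 CPM in knockdown-labelled lungs and at 8.65, 9.96 and 7.95 CPM in WT lungs, without overlap (edgeR adjusted p = 0.169), and its log2 fold change was -0.365 with the heart muscle term.

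A list named for gap junctions and adhesion held 11 members with a median of 0.14, among them genes of other roles such as Homez, Rem2, Slc22a17, Lrp10, Adcy4 and Tgm1. At an unadjusted p under 0.05, 2 were lower and 1 was higher (8.52% and 8.48% of all genes tested). The lower ones were Adcy4 and Tgm1, described above, and neither is a gap junction or adhesion gene. The higher one was Jph4, a junctophilin that ties the endoplasmic reticulum to the cell surface in neurons, at 2.59, 1.49 and 5.28 CPM against 1.17, 0.918 and 1.15 CPM. The groups were apart, with the 3 WT libraries close together and the knockdown-labelled ones spread (log2 fold change 1.53 ± 0.48, SE, edgeR adjusted p = 0.205). The log2 fold change of Jph4 was 0.91 without knockdown-labelled replicate 3 and 2.15 with the heart muscle term. The connexin genes overlapped between the groups. Gjb2 had 2.04, 1.42 and 10.7 CPM in knockdown-labelled lungs and 1.54, 1.27 and 3.52 CPM in WT lungs, highest in replicate 3 of each group. Gjb6 had 15.9 ± 3.46 against 14.4 ± 4.02 CPM.

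The list of T cell receptor segments and granule proteases had 5 tested members, all with positive log2 fold changes (median 1.26). Of these, 1 was at an unadjusted p under 0.05, where 8.48% of all genes tested were higher. The T cell members of the list followed single libraries of both groups. Trac, the constant segment of the T cell receptor alpha chain, stood at 5.00, 8.00 and 2.20 CPM in knockdown-labelled lungs and at 0.618, 0.918 and 5.83 CPM in WT lungs. Trdc, the constant segment of the delta chain, stood at 4.63, 10.8 and 0.922 CPM against 0.433, 0.212 and 4.10 CPM. Psmb11, the catalytic subunit of the proteasome of thymic cortical epithelium, lies 0.114 Mb after Prmt5 and had 40, 73 and 1 counts in knockdown-labelled lungs against 2, 1 and 73 counts in WT lungs. All 3 were high in knockdown-labelled replicates 1 and 2 and WT replicate 3, and low in the others. Their log2 fold changes were 1.03 ± 0.86, 1.76 ± 1.15 and 0.62 ± 1.50 (SE), with edgeR adjusted p of 0.591, 0.489 and 0.881. Without WT replicate 3 they were 2.71 for Trac, 4.02 for Trdc and 4.57 for Psmb11, and without knockdown-labelled replicate 2 they were 0.54 for Trac and 0.79 for Trdc. For Psmb11 the sign turned without knockdown-labelled replicate 2 (-0.40), and for all 3 with heart muscle level as a covariate (-1.11, -1.14 and -2.77).

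Markers of T cells and of the thymus moved with these members. The 6 T cell markers, Trac among them, summed to 77.9, 130 and 8.15 CPM in knockdown-labelled lungs and to 5.87, 3.39 and 101 CPM in WT lungs, and 1 of the 6 was at 0 in at least 1 library. A list of 10 thymus genes chosen after these values were seen, such as the recombinase gene Rag1 and the thymic epithelial factor Foxn1, summed to 139.6, 269 and 6.92 CPM in knockdown-labelled lungs against 4.20, 2.26 and 160.1 CPM in WT lungs. The libraries with high sums are those with high Psmb11, and 3 of the 10 genes were at 0 in at least 1 library. The part of thymus RNA in these values was not tested.

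Of the granule proteases, Cma1, the chymase of mast cells, stood at 6.48, 6.09 and 19.1 CPM in knockdown-labelled lungs and at 1.85, 4.10 and 4.61 CPM in WT lungs. The groups did not overlap, and knockdown-labelled replicate 3 was the highest of the 6 libraries (log2 fold change 1.59 ± 0.54, SE, edgeR adjusted p = 0.226, and 0.84 without that library). Mcpt4, another mast cell chymase, stood at 1.73, 0.708 and 3.59 CPM against 0.742, 0.777 and 1.03 CPM, with overlapping groups (log2 fold change 1.26, and 0.53 without knockdown-labelled replicate 3). Gzmb, the granzyme of cytotoxic cells, had 4.40 ± 0.684 against 4.22 ± 0.950 CPM. Mast cell markers off the chromosome moved with Cma1. The carboxypeptidase gene Cpa3 had 12.3, 12.1 and 31.7 CPM against 5.13, 7.84 and 7.56 CPM, and the tryptase gene Tpsb2 had 5.74, 4.39 and 17.6 CPM against 2.16, 1.98 and 4.87 CPM. Of the 6 markers, which count Cma1 and Mcpt4, none was at 0, 4 of the 5 tested were positive, and Kit, which other cells also express, was the negative one. The list summed to 110 to 184 CPM in knockdown-labelled lungs and 168 to 189 CPM in WT lungs with Kit, and to 23.6 to 72.6 CPM in knockdown-labelled lungs and 10.3 to 18.1 CPM in WT lungs without it. Its part in the value of Cma1 was not tested.

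The largest log2 fold changes of the segment stood beside the heart myosin genes. Mhrt is a noncoding RNA of heart muscle that runs antisense to Myh7, and Gm49130 and Gm31251 are gene models that overlap Myh6 and Myh7. Mhrt had 1.85, 6.44 and 1.38 CPM in knockdown-labelled lungs and 0.247, 0.565 and 1.22 CPM in WT lungs (log2 fold change 2.23 ± 0.77, SE, edgeR adjusted p = 0.227). Gm49130 had 3.83, 5.59 and 2.20 CPM against 0.371, 0.636 and 1.54 CPM (2.17 ± 0.57, edgeR adjusted p = 0.167). Gm31251 had 1.23, 4.67 and 0.820 CPM against 0.185, 0.0706 and 0.577 CPM (2.94 ± 0.90, edgeR adjusted p = 0.201). Leaving out knockdown-labelled replicate 2 gave log2 fold changes of 1.25 for Mhrt and 1.83 for Gm31251. The groups did not overlap in any of the 3, knockdown-labelled replicate 2 was highest and WT replicate 3 was the highest WT library. Without a stated strand setting, reads of these RNAs and of the myosin genes on the other strand cannot be told apart.

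Heart muscle markers moved with these RNAs. All 15 had positive log2 fold changes with a median of 2.27, none was at 0, and 11 were at an unadjusted p under 0.05 but 0 past the adjusted one. Their summed level was 4460, 12850 and 3488 CPM in knockdown-labelled lungs against 522, 645 and 3061 CPM in WT lungs. Myh6 had 1442, 3451 and 1139.9 CPM against 87.0, 157 and 959 CPM, and Myh7 had 233, 1921 and 241 CPM against 134, 137 and 141 CPM. With heart muscle level as a covariate the log2 fold changes of Mhrt, Gm49130 and Gm31251 were -0.13, 0.69 and 0.30. That level counts Myh6 and Myh7, which these RNAs overlap, so the covariate is not independent of their values and no conclusion is drawn. Of the other genes left out by name, Mmp14, Hnrnpc, Mrpl57 and Fgf9 had log2 fold changes of -0.12, 0.06, 0.12 and 0.24. Mrpl52, a mitochondrial ribosomal protein gene, was apart between groups at 29.6 ± 3.31 against 24.3 ± 0.473 CPM (edgeR adjusted p = 0.230).

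**Figure D5:**
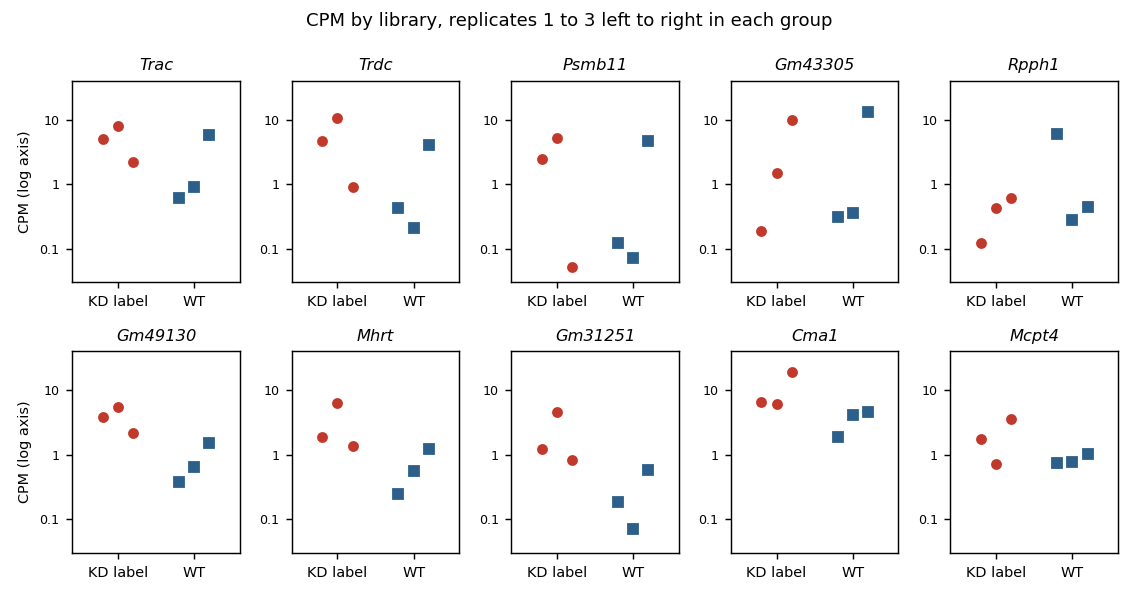
CPM (log axis) of 10 members in knockdown-labelled replicates 1 to 3 (circles) and WT replicates 1 to 3 (squares), from left to right in each group. Trac, Trdc and Psmb11 are high in knockdown-labelled replicates 1 and 2 and WT replicate 3, Gm43305 is high in replicate 3 of each group, Rpph1 in WT replicate 1, and the RNAs at the myosin genes are highest in knockdown-labelled replicate 2.

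Members without a place on a list included several of the smallest p. Carmil3, a regulator of actin capping protein, stood at 12.8, 14.4 and 16.6 CPM in knockdown-labelled lungs and at 8.10, 9.96 and 9.10 CPM in WT lungs, without overlap (log2 fold change 0.69 ± 0.15, SE, edgeR adjusted p = 0.137). Armh4, which encodes a membrane protein, had 10.0, 17.3 and 10.5 CPM against 5.56, 4.59 and 7.75 CPM (log2 fold change 1.07 ± 0.29, SE, edgeR adjusted p = 0.172). With the heart muscle term, which separates the groups, the log2 fold change of Armh4 was 0.28. Armh4, like the heart muscle sum, was highest in replicate 2 of the knockdown-labelled group and replicate 3 of the WT group. The part of heart muscle RNA in the values of Armh4 was not tested. Xpo4, a nuclear transport receptor, had 38.8, 43.2 and 40.8 CPM against 54.4, 48.9 and 54.0 CPM (log2 fold change -0.36 ± 0.08, SE, edgeR adjusted p = 0.140). Zdhhc20, a palmitoyltransferase, had 123, 117 and 116 CPM against 132, 144 and 134 CPM (edgeR adjusted p = 0.216), and the gene model Gm16973 had 18.4, 17.4 and 18.0 CPM against 23.9, 21.3 and 19.0 CPM (edgeR adjusted p = 0.299, with a log2 fold change of -0.26, and of -0.03 with the heart muscle term). In Carmil3, Armh4, Xpo4, Zdhhc20 and Gm16973 every library of one group lay beyond every library of the other. Gm26782, a gene model that overlaps Tep1, was the other higher one, at 6.11, 8.42 and 8.15 CPM against 5.99, 5.65 and 5.06 CPM (edgeR adjusted p = 0.292). Between Xpo4 and Zdhhc20 lie the members Sap18, Ska3 and Lats2, with log2 fold changes of -0.08, -0.06 and -0.25. Mrpl57, left out by name, lies there too and had a positive log2 fold change of 0.12.

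Gm43305 and Rpph1 were picked after their values were seen, as members that differed between libraries of 1 group. Gm43305, a gene model 0.215 Mb before Prmt5, had 10.0 CPM in knockdown-labelled replicate 3 and 13.3 CPM in WT replicate 3, against 0.185 and 1.49 CPM in the other knockdown-labelled libraries and 0.309 and 0.353 CPM in the other WT libraries. Its difference ran across both labels (log2 fold change -0.24 ± 1.56, SE). Rpph1, the RNA subunit of ribonuclease P, was not tested and had 2, 6 and 12 counts in knockdown-labelled lungs and 96, 4 and 7 counts in WT lungs. The 11 members that passed an adjusted p of 0.05 in DESeq2 were Ndrg2, Carmil3, Armh4, Gm49130, Gm31251 and Cma1, with higher values, and Adcy4, Ajuba, Xpo4, Ripk3 and Tgm1, with lower ones. With the heart muscle term in edgeR the higher ones had, in that order, log2 fold changes of 0.50, 0.68, 0.28, 0.69, 0.30 and 1.61. The lower ones had -0.56, -0.20, -0.44, -0.70 and -0.45.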

How the data were processed

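Poly(A) RNA-seq was done on whole lungs of 3 embryos labelled Prmt5 knockdown and 3 labelled WT. The authors deposited whole-number counts for each gene in each library. FPKM values stand beside them, per the file headers. Recomputing FPKM from counts and exonic lengths differed by at most 0.005. HISAT2 2.0.1, HTSeq 0.6.1 and cutadapt 1.9.1 are named in the submitters' processing notes. Build and strand setting: not given in the sources used here. Starts in the table differ from GRCm38 by a median of 237 kb among 128 members matched, so its own coordinates are used and no build is named for them.

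Counts were analysed with edgeR 4.0.16 in R 4.3.3: filterByExpr (17728 genes kept), TMM, the group as the only term, the quasi-likelihood test, two-sided, and Benjamini-Hochberg adjustment over all genes tested. SE is the absolute log2 fold change over the square root of F. The common biological coefficient of variation was 21.8%, and a floor of 3 counts is 0.154 to 0.212 CPM. An exact permutation test of 3 against 3 cannot go below 0.1 and was not used. The code was tested on simulated data.

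The genes to be named were Prmt5, the 5 members nearest on each side, up to 10 per direction with the smallest p and groups apart, and up to 4 per list plus any at an unadjusted p under 0.05. Members and lists were chosen with earlier results of these data known. Alternatives used DESeq2 1.42.0, limma 3.58.1 and the settings of the closing section. Other genes are examples picked after their values were seen. Promoters are RefSeq's.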

Additional observations from a re-analysis of the deposited data

How the results depend on the processing

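Of the members 0 passed an adjusted p of 0.05 in edgeR or limma under every scaling, filter, covariate and left-out library tried, while DESeq2 called 11. In the main edgeR fit 0 members passed 0.10 either, where 96 genes in the table did. Some members came under 0.10 in other edgeR fits. Examples are Ndrg2 (0.0525) and Adcy4 (0.0852) without a filter on low counts, and Adcy4 (0.0799) without knockdown-labelled replicate 2. The 25 members at an unadjusted p under 0.05 were 8 with heart muscle level as a covariate (6.11%, against 6.91% of all genes). That level separates the groups, so this fit is not read as an adjustment. With a library left out they were 15 to 30 (11.2% to 22.2%, against 9.13% to 18.1% of all genes). Windows of 1, 2 and 10 Mb held 6, 14 and 45 such members among 38, 73 and 208 tested, where all genes tested had 17.0%. The count of members whose groups do not overlap, 27, was 35 to 53 with a library left out (28.5% to 37.9% of all genes). It was 53 of 131 without knockdown-labelled replicate 2 and WT replicate 3 together (48% of all genes), an alternative chosen after seeing the data. Fewer libraries overlap less. The median log2 fold change of 0.0047 was 0.0543 with the heart muscle covariate, 0.1059 and 0.0357 in windows of 1 and 2 Mb, -0.0267 for mean counts of 100 or more, 0.0551 without overlapping genes and -0.0006 to 0.0145 with a library left out. With the 8 genes left out by name included, also chosen after seeing the data, 28 of 139 were at an unadjusted p under 0.05 and 30 did not overlap. The shares over all genes were 17.0% and 23.2%. Of 757 values of 48 named genes over 16 fits, 11 changed sign, none of them past the adjusted threshold in either fit; Mhrt, at an unadjusted p under 0.05, was -0.13 with the heart muscle covariate. No paired analysis was possible because the sample titles share no replicate numbers between the groups. Depth limits members with few counts, such as Gm31251 and Psmb11, each with 1 count in at least 1 library.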
